A study of Mus musculus with 6 samples.

Results

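Apolipoproteins are the protein part of the particles that carry cholesterol and other lipids between cells. The genes described are Apoe, Apoc1, Apoc2, Apoc4, Apod, Apoa1, Apob, Apom, Apoh and Clu, taken by their symbols from the deposited gene tables. They are 10 of the 55385 genes in those tables. RNA was sequenced from mammary tumors of female mice, 3 control and 3 fed DMHCA, a synthetic oxysterol-like agonist of the liver X receptors (LXR). The question was how gene expression in these tumors differed when LXR was activated by a diet.

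All 6 libraries came from the NeuT/ATTAC strain. These mice carry an activated rat ErbB2[V664E] gene under the MMTV promoter, which acts mainly in mammary epithelium. They also carry an FKBPv-caspase-8 fusion under the FABP4 promoter, which is active in fat cells. AP20187 is a compound that pairs these fusion proteins. Fat cells of the mammary gland are then lost in part, and fibrosis takes their place. Injections of 0.4 mg/kg AP20187 began at 6 weeks of age. DMHCA-fed mice received a diet with 0.05% DMHCA, a dose near 100 mg/kg, from 8 weeks of age. Controls bear the treatment label "AP20187 Vehicle", which does not say which of these they received, while the study's text describes controls given AP20187. The age at which tumors were taken is not given in the sources used here. The tissue label names mammary fibrosis and the study's results name tumors.

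Total expected counts, the reads that RSEM assigned to genes, were 53939201, 63420620 and 46358654 in Controls 1, 2 and 3. They were 55539411, 52755446 and 52330938 in DMHCA 1, 2 and 3. DMHCA 1 and DMHCA 3 were nearly the same library. Their coefficient of variation beyond counting noise was 0.0327 over 13380 genes, against 0.376 to 0.579 for the other pairs within a group. A chi-square test per gene found a difference for 18.1% of genes in that pair and for 82.0% to 87.9% in the others. DMHCA 1 and 3 were therefore summed and counted as 1 sample, which left 3 control and 2 DMHCA samples. Values of each library are given for levels, and values of the 5 samples for comparisons.

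As background, ApoE is the ligand through which lipid particles bind to receptors of the LDL receptor family, and macrophages secrete much of it outside the liver. The small C apolipoproteins tune lipolysis and uptake of the same particles. LXR are nuclear receptors activated by oxysterols, and the Apoe, Apoc1, Apoc4 and Apoc2 cluster is a textbook LXR target in macrophages.

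Per unit of transcript length, Apoe was the most abundant of the 10 genes. Levels are in TPM, a unit of transcripts that corrects for their length and for library size. Mean TPM over the 5 samples was 2504 for Apoe, 538 for Clu, 435 for Apoc1 and 224 for Apod. It was 5.79 for Apoc2, 1.18 for Apoc4, 0.596 for Apoh, 0.096 for Apom, 0.052 for Apoa1 and 0 for Apob. Apoe lay above Clu in 5 of 5 samples with no overlap of their ranges, 1887 to 3386 against 113 to 992 TPM. Clu overlapped with Apoc1, and Apoc1 (17.3 to 1540.35 TPM) with Apod (32.9 to 703 TPM), so the order of those 3 was not separated by their spread. Every sample had more Apod than Apoc2 and more Apoc2 than Apoc4, with no overlap of ranges. Below Apoc4, each gene overlapped with the next.

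Summed over the 10 genes, the level was 4161, 2633 and 4423 TPM in Controls 1, 2 and 3 and 4203, 3149.88 and 4153 TPM in DMHCA 1, 2 and 3. The sums of both groups thus covered a similar range, and the makeup of the sum differed between libraries. Apoe made up 68.6%, 75.2% and 76.6% of it in the controls and 58.7%, 59.9% and 56.6% in the DMHCA libraries. The share of Clu was 23.9%, 22.6% and 14.0% in the controls against 2.76%, 11.8% and 2.66% after DMHCA. Apoc1 held 3.21%, 0.658% and 6.76% in the controls, and 35.9%, 5.80% and 37.9% in DMHCA 1, 2 and 3. For Apod the shares were 4.15%, 1.25% and 2.39% in the controls and 2.50%, 22.3% and 2.67% after DMHCA. The DMHCA samples therefore differed from each other in which gene stood second to Apoe, Apoc1 in DMHCA 1 and 3 and Apod in DMHCA 2.

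**Figure D1:**
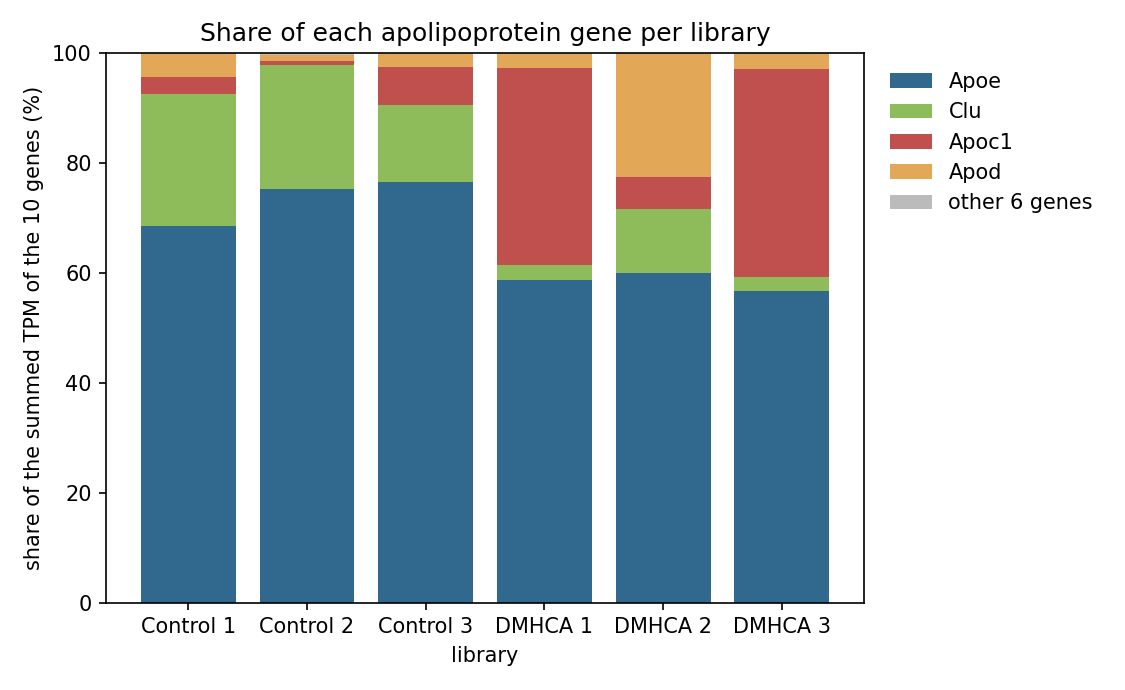
Stacked bars give the percent of the summed TPM of the 10 apolipoprotein genes that each gene held, for each of the 6 libraries on the x axis; DMHCA 1 and 3 are nearly the same library. Apoe was the largest share in every library, Apoc1 reached 35.9% and 37.9% in DMHCA 1 and 3, and Apod reached 22.3% in DMHCA 2.

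Of the 10 genes, 7 passed the filter on low counts, and Apoa1, Apob and Apom did not. None of the 7 had an adjusted p under 0.05 when edgeR (quasi-likelihood) compared the 5 samples, where 0 of 19427 genes tested did (0%) and the lowest adjusted p was 0.644. At an unadjusted p under 0.05 stood 1 of the 7, Clu, against 1478 of all genes tested (7.61%). DESeq2 called 0 of the 7 on the 5 samples, against 244 of 20055 genes (1.22%). With the 6 libraries as separate samples, which counts DMHCA 1 and 3 as different tumors, DESeq2 called 2 of the 7, Apoc1 and Clu, against 887 of 19951 genes (4.45%). In normalized counts, the control and DMHCA samples did not overlap for 3 of the 7, Apoe, Apoh and Clu, all lower after DMHCA. Apoh passed the filter through its control samples, and it had 12.6 in Control 1 against 11.2 in DMHCA 2. Its place among the 3 therefore says little. Among all genes tested, 12.2% lay lower without overlap and 13.8% lay higher without overlap, a direction in which there were 0 of the 7. The median log2 fold change of the 7 was -0.53, with 2 higher and 5 lower, against -0.03 and 48.0% higher among all genes tested. Nothing about the family is read from these counts.

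The counts moved with single libraries. Without Control 1, 5 genes did not overlap, with Apoc2 and Apod added (37.7% of all genes in that fit), and 2 had an unadjusted p under 0.05, Apod and Clu (6.7% of all genes). Without Control 3, that second count was 3, Apoc1, Apoh and Clu (5.43% of all genes). Leaving out DMHCA 2, which left DMHCA 1 and 3 as the only DMHCA sample, gave 5 genes without overlap, with Apoc1 and Apoc2 added (49.8% of all genes), and 2 with an unadjusted p under 0.05, Apoc1 and Clu (4.26% of all genes). In each of the 6 fits with 1 library left out, edgeR called 0 of the genes, with the lone sample assumed to vary like the controls where DMHCA 2 was left out.

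**Figure D2:**
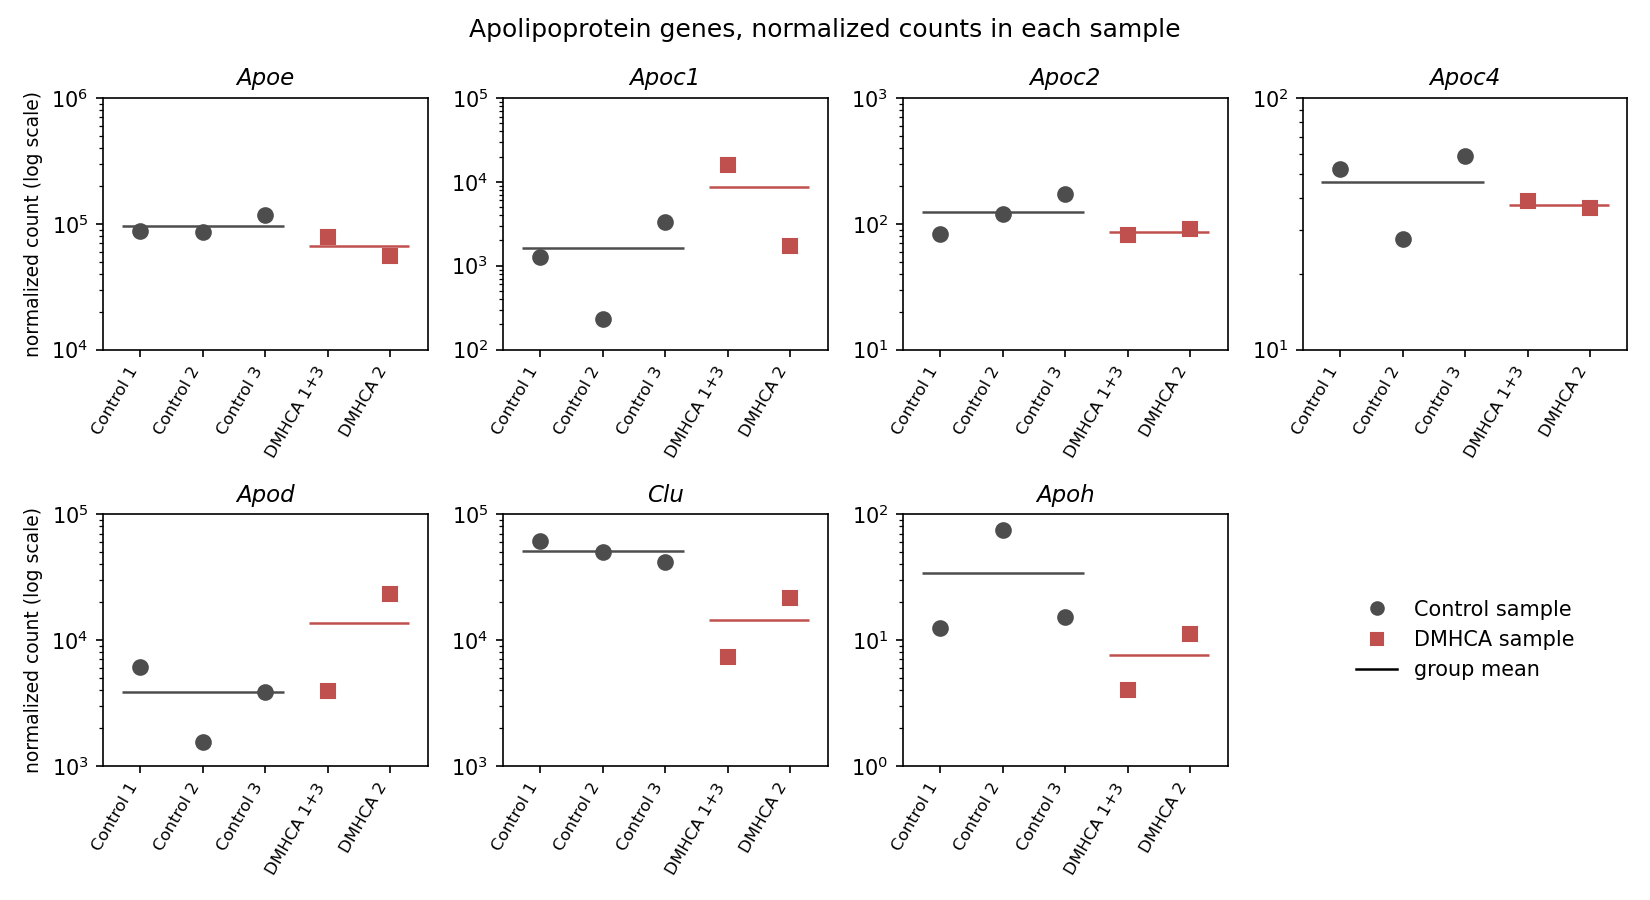
Points give normalized counts on a log axis for the 7 apolipoprotein genes that passed the filter, in 3 control samples (circles) and 2 DMHCA samples (squares, DMHCA 1 and 3 summed and scaled as 1 sample), and lines give group means. Clu lay at 41497 or more in the controls and at 21754 or less after DMHCA, while Apoc1 and Apod were each far above the controls in only 1 of the 2 DMHCA samples.

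Apoe (ENSMUSG00000002985, chromosome 7 of GRCm38, 19696109 to 19699188, minus strand) held 86935, 85407 and 117462 normalized counts in Controls 1, 2 and 3. DMHCA 2 had 55219 and DMHCA 1 and 3 had 78245. Normalized counts are counts scaled by effective library size to the mean total of the 6 libraries. Both DMHCA samples were below all 3 controls, by a margin smaller than the range within either group. The mean was 96602 ± 18082 in controls (SD, n = 3) and 66732 ± 16282 after DMHCA (SD, n = 2). The log2 fold change was -0.53 with a standard error (SE) of 0.38 (adjusted p = 0.709 by edgeR), and it was -0.26 without DMHCA 2. On the TPM scale the controls had 2855, 1979.94 and 3386 and DMHCA 1, 2 and 3 had 2468, 1887 and 2352, so that Control 2 lay among the DMHCA samples and the groups overlapped. Apoe ranked between 35 and 79 among the 55385 genes by TPM in every library. In bulk RNA, fewer cells of a type and less RNA per cell cannot be told apart.

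Macrophage markers, from cells known to secrete ApoE, had overlapping sums in both groups. Summed over 12 markers, they reached 859, 810.38 and 1034 TPM in Controls 1, 2 and 3, and 872, 701 and 889 TPM in DMHCA 1, 2 and 3. Their log2 fold changes were 3 higher and 9 lower with a median of -0.16. By edgeR, 0 of the 12 had an adjusted or an unadjusted p under 0.05, and DESeq2 on 6 libraries called 0. In normalized counts 2 of the 12, C1qa among them, were lower after DMHCA without overlap, and 0 were higher without overlap. Among all genes tested, 12.2% were lower and 13.8% higher without overlap. C1qa, a complement subunit and the most abundant of them, had 331, 319.91 and 364 TPM in controls and 312, 247 and 319.69 TPM in DMHCA 1, 2 and 3. On the log2 scale C1qa stood at -0.46 (SE 0.30) and C1qc, another subunit, at -0.41 (SE 0.30). The 3 higher markers, named after their values were seen, were Mrc1 (0.32), Cd163 (0.32) and Fcgr1 (0.05), with overlapping groups. None of the 12 was at 0. Their part in the levels of Apoe was not tested.

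Apoc1 (ENSMUSG00000040564, chromosome 7, 19689481 to 19692660, minus strand) encodes a small apolipoprotein that slows the clearance of lipid particles. The controls held 1265, 234 and 3316 normalized counts. DMHCA 2 had 1731, which lay between Controls 1 and 3, and DMHCA 1 and 3 had 15781. One DMHCA sample was thus above every control and the other was among them, and the groups overlapped. The 5 samples covered a 67.3-fold range, of which the controls alone covered 14.1-fold and the DMHCA samples 9.12-fold. Means were 1605 ± 1569 in controls (SD, n = 3) and 8756 ± 9935 after DMHCA (SD, n = 2). For Apoc1 the log2 fold change was 2.45 with an SE of 1.16 (adjusted p = 0.644 by edgeR). It was 1.93 without Control 2, 3.54 without Control 3 and 3.35 without DMHCA 2. With 6 libraries as separate samples, DESeq2 gave 2.82 (adjusted p = 0.0337, against 0.310 on 5 samples), with the pair DMHCA 1 and 3 counted as 2 of its 3 DMHCA samples.

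Within a library, Apoc1 stood at 4.68, 0.875 and 8.83 transcripts per 100 of Apoe in Controls 1, 2 and 3. In DMHCA 1, 2 and 3 this ratio was 61.1, 9.68 and 66.8. All DMHCA libraries were above all controls in this ratio, with DMHCA 2 (9.68) close to Control 3 (8.83). By TPM, Apoc1 ranked 101 and 100 of 55385 genes in DMHCA 1 and 3, 819 in DMHCA 2, and 989, 5649 and 408 in Controls 1, 2 and 3.

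Apoc2 (ENSMUSG00000002992, chromosome 7, 19671579 to 19677941, minus strand) encodes the cofactor of lipoprotein lipase. Its normalized counts were 83.1, 119 and 173 in the controls, 90.5 in DMHCA 2 and 81.2 in DMHCA 1 and 3. Control 1 lay between the DMHCA samples, and the groups overlapped. The log2 fold change was -0.54 with an SE of 0.54 (adjusted p = 0.775 by edgeR), and it was -0.24 without Control 3. Apoc4 (ENSMUSG00000074336, chromosome 7, 19678083 to 19681479, minus strand), a little-studied member of the C group, held 52.2, 27.6 and 58.7 normalized counts in the controls, 36.6 in DMHCA 2 and 38.8 in DMHCA 1 and 3. Both DMHCA samples lay within the range of the controls. For Apoc4 the log2 fold change was -0.29 with an SE of 0.58 (adjusted p = 0.895 by edgeR). It was -0.09 without Control 3 and -0.56 without Control 2. On the log2 TPM scale it was 0.00 and 0.05 with pseudocounts of 1 and 0.1.

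Counts of Apoc2 and Apoc4 are uncertain, because exons of Gm44805, a read-through gene on the same strand (19671584 to 19681423), overlap those of both. RSEM assigned 18.65 expected counts to Gm44805 in Control 1 and 0 in the other 5 libraries. The transcript length that RSEM used for Apoc4, an average weighted by isoform, went from 905 bases in Control 1 to 1482 bases in Control 3. Its annotated transcripts are a coding one of 538 bases and a retained-intron one of 2096 bases. TPM of Apoc4 was 1.88 in Control 1 and 1.08 in Control 3, from 53.65 and 53.89 expected counts. For Apoc1, Apoe, Apoc2, Clu and Apod the lengths differed by 0.682%, 3.15%, 1.58%, 1.12% and 6.25% between libraries, and for Apoh by 58.9%.

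The 4 genes stand in a row of 27610 bases on the minus strand of chromosome 7. Apoe is followed by Apoc1 after 3448 bases, Apoc1 by Apoc4 after 8001 bases and Apoc4 by Apoc2 after 141 bases. The profile of a gene over the 5 samples was compared with that of another by the root mean square (RMS) difference of their centred log2 normalized counts. This was 0.30 between Apoe and Apoc2, 0.35 between Apoe and Apoc4 and 0.47 between Apoc2 and Apoc4. Between Apoc1 and its neighbours it was 1.995 (Apoe), 2.10 (Apoc2) and 1.83 (Apoc4). The spread of a gene about its own mean over the same samples was 0.35 for Apoe, 0.41 for Apoc2, 0.38 for Apoc4 and 1.97 for Apoc1. The differences among Apoe, Apoc2 and Apoc4 were thus about as large as the spread of each gene, and are small because these genes varied little. In Control 2, Apoc4 was at its lowest while Apoc2 was at its second highest.

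Of 11 genes chosen as neighbours of the cluster, 10 were tested, with 9 higher and 1 lower after DMHCA and a median log2 fold change of 0.74. By edgeR the adjusted p was under 0.05 for 0 and the unadjusted p for 4, and DESeq2 on 6 libraries called 2. In 6 of the 10 the groups did not overlap, each higher after DMHCA. Tomm40, next to Apoe and coding for the import pore of mitochondria, had 49.7, 27.9 and 32.6 TPM in controls and 84.6, 87.6 and 84.8 TPM in DMHCA 1, 2 and 3. Tomm40 stood at 1.06 on the log2 scale (SE 0.26, adjusted p = 0.644 by edgeR). Nectin2, which codes for an adhesion molecule, had 39.4, 15.05 and 27.4 TPM in controls and 73.65, 69.3 and 77.1 TPM after DMHCA (log2 fold change 1.23, SE 0.33). Clptm1, which lies beyond Apoc2 and is named for its position after its values were seen, stood at 0.90 on the log2 scale (SE 0.30). Gemin7, a subunit of the complex that assembles spliceosomal particles and the most abundant neighbour, stood at 0.30 on the log2 scale (SE 0.25). Whether the neighbours differed from the genes of the cluster was not tested.

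**Figure D3:**
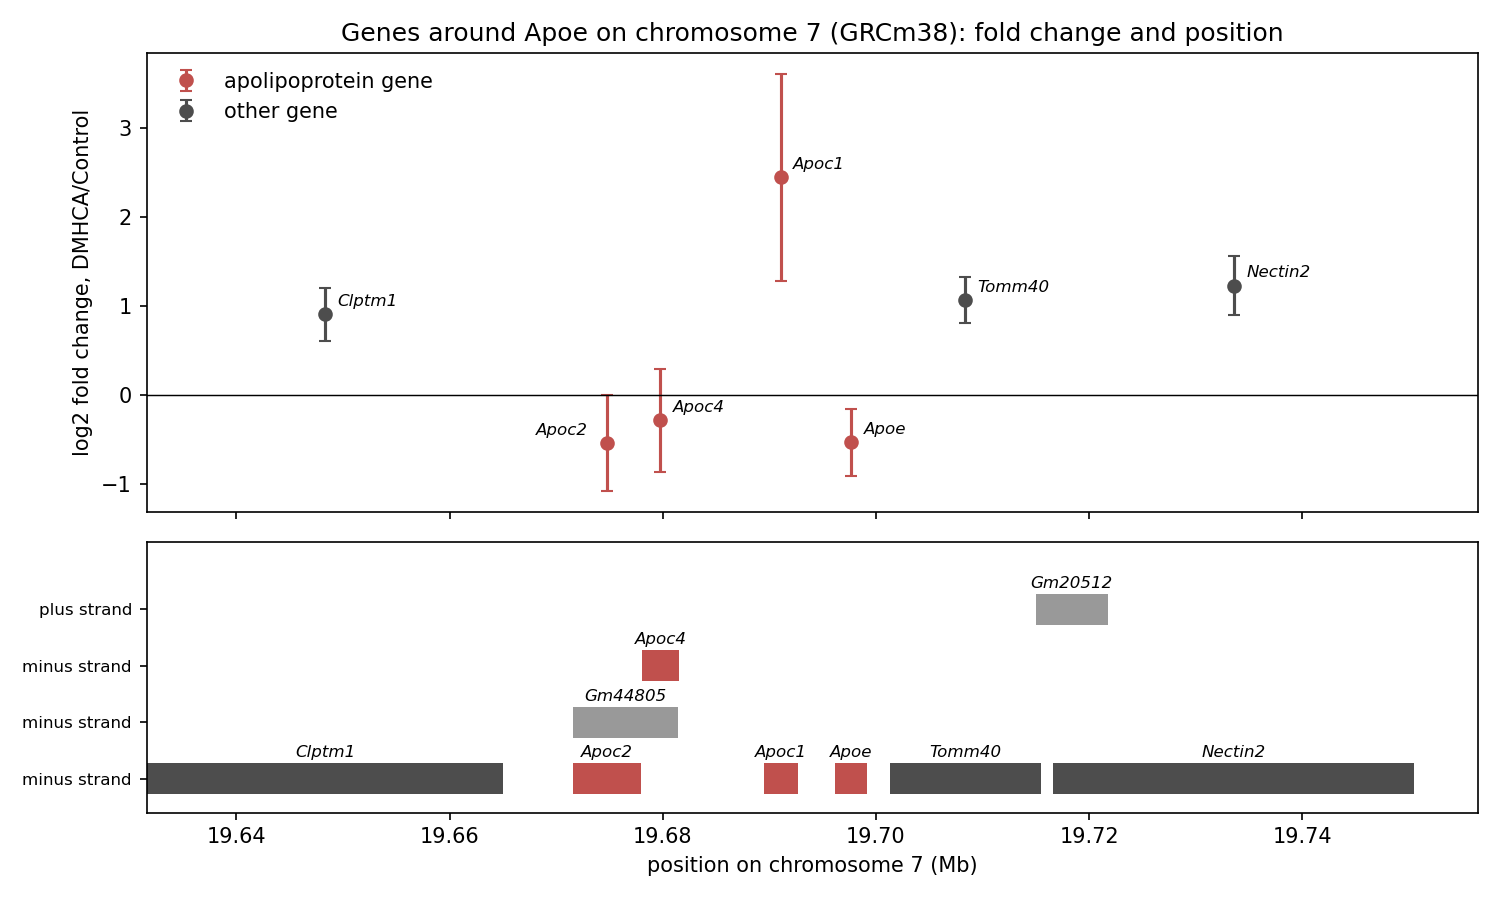
The upper panel plots the log2 fold change of DMHCA against control (points, with bars of 1 standard error from edgeR) at each gene's midpoint on chromosome 7 of GRCm38 in Mb, and the lower panel maps the genes by strand, with overlapping genes on rows of their own and untested genes in light grey. Clptm1 (0.90), Tomm40 (1.06) and Nectin2 (1.23) lay above 0, and Apoe (-0.53), Apoc2 (-0.54) and Apoc4 (-0.29) below it, with Apoc1 at 2.45.

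LXR binds DNA as a pair with the receptor RXR, classically at 2 copies of the half-site AGGTCA in the same direction and 4 bases apart. Promoter sequences from RefSeq (build GRCm38.p6) matched 8 of the 10 genes, all but Apoc1 and Clu, and the 250 bases before the start were searched for AGGTCA on both strands. The half-site was in 14.0% of all 32851 promoters, and the pair in 5 of them (0.0152%). It stood once in the promoters of Apoc2, Apoc4 and Apoh, and in none of those of Apoe, Apoa1, Apob, Apod and Apom; the pair was in none of the 8. A match describes letters only, and no match says only that they are not in this window. The promoters of Apoe, Apoc4 and Apoc2, the genes of the cluster with an entry, are shown without bases that an annotated exon covers, for Apoe the one farthest upstream of its 3 entries. Each reads 5′ to 3′ on the minus strand, at chr7:19699189-19699438, chr7:19681480-19681710 and chr7:19677942-19678082, with AGGTCA in capitals.
Apoe: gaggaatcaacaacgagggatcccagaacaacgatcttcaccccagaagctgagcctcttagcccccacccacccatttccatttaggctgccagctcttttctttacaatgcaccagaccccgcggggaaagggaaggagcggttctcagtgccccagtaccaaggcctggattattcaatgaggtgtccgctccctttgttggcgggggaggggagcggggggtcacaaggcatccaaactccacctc
Apoc4: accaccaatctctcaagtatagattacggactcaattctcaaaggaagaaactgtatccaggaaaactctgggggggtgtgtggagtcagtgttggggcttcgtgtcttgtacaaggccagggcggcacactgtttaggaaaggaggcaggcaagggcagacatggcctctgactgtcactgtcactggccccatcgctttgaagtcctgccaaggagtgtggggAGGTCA
Apoc2: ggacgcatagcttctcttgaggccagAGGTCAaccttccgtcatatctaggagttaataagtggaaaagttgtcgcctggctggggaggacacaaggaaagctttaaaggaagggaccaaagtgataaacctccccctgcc

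Clu (ENSMUSG00000022037, chromosome 14, 65968483 to 65981547, plus strand) encodes clusterin, also called apolipoprotein J, a secreted chaperone. The controls held 61653, 49964 and 41497 normalized counts. DMHCA 2 had 21754 and DMHCA 1 and 3 had 7291. Both DMHCA samples were below the lowest control, and the DMHCA samples differed from each other 2.98-fold. Means were 51038 ± 10120.5 in controls (SD, n = 3) and 14523 ± 10227 after DMHCA (SD, n = 2). For Clu the log2 fold change was -1.81 with an SE of 0.54, with an unadjusted p of 0.0134 and an adjusted p of 0.644 by edgeR. DESeq2 gave an adjusted p of 0.0801 on 5 samples, and of 0.00295 on 6 libraries with a log2 fold change of -2.07. The value was -2.77 without DMHCA 2. On the TPM scale, Clu stood at 992, 595 and 621 in controls and at 116, 370.46 and 110.43 in DMHCA 1, 2 and 3, also without overlap. Of the 7 genes tested, Clu was the only one whose groups did not overlap on either scale.

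Each library held more Apoe than Clu. The ratio of their TPM was 2.88, 3.33 and 5.45 in Controls 1, 2 and 3, and 21.3, 5.09 and 21.3 in DMHCA 1, 2 and 3. DMHCA 2 was thus below Control 3 in this ratio, although its level of Clu was below that of every control.

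Apod (ENSMUSG00000022548, chromosome 16, 31296192 to 31314808, minus strand) encodes a lipocalin that binds small lipids. Its normalized counts were 6139.8, 1538 and 3831 in the controls, 23292 in DMHCA 2 and 3919.9 in DMHCA 1 and 3. DMHCA 2 was above every other sample, DMHCA 1 and 3 lay between Controls 1 and 3, and the groups overlapped. Means were 3836 ± 2301 in controls (SD, n = 3) and 13606 ± 13698 after DMHCA (SD, n = 2). The log2 fold change was 1.83 with an SE of 0.81 (adjusted p = 0.644 by edgeR), and it was 0.07 without DMHCA 2. In TPM, Apod had 173, 32.9 and 106 in controls and 105, 703 and 111 in DMHCA 1, 2 and 3. The sample with the most Apod was not the one with the most Apoc1, and their RMS difference was 2.05 on the log2 scale.

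The other genes with the most similar profile were found among 11788 genes with a mean of at least 300 normalized counts, as a description over 5 samples. Nearest to Apoe were Tagln (RMS difference 0.06), Slc11a1 (0.07) and Rara (0.07), which code for an actin-binding protein of smooth muscle, a metal transporter of macrophages and a retinoic acid receptor. Nearest to Apoc1 were Gdf5 (0.25), Foxred2 (0.31) and Mfsd4a (0.63), of which Gdf5 codes for a growth factor of joints. Gdf5 had 131, 32.4 and 438 normalized counts in controls, 179 in DMHCA 2 and 1383 in DMHCA 1 and 3. For Apod they were Epha7 (0.27), Hal (0.40) and Ebf2 (0.43), which code for an ephrin receptor, histidine ammonia-lyase and a transcription factor. Epha7 had 2718, 724 and 1657 normalized counts in controls, 7459 in DMHCA 2 and 2229 in DMHCA 1 and 3. Clu was nearest to Arhgap6 (0.31), Dclk1 (0.33) and Aldh1a3 (0.33), of which Aldh1a3 makes retinoic acid. Aldh1a3 had 4819, 2203 and 2221 normalized counts in controls, 877 in DMHCA 2 and 368 in DMHCA 1 and 3.

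Apolipoproteins made mainly by liver and intestine were at or near the limit of detection. Apoa1 (ENSMUSG00000032083, chromosome 9, 46228580 to 46230466, plus strand), the main protein of high-density lipoprotein, had 2, 1 and 3 expected counts in Controls 1, 2 and 3 and 3, 0 and 3 in DMHCA 1, 2 and 3. Apob (ENSMUSG00000020609, chromosome 12, 7977648 to 8016835, plus strand), the scaffold of very-low-density and low-density lipoproteins, had 1 count in Control 2 and 0 in the other 5 libraries. A count of 0 allows up to 3 counts, which is 0.0556 CPM (counts scaled by library total) in Control 1, 0.0647 in Control 3, and 0.0540, 0.0569 and 0.0573 in DMHCA 1, 2 and 3, for counting error only. Apom (ENSMUSG00000024391, chromosome 17, 35128997 to 35132050, minus strand), which carries the signalling lipid sphingosine 1-phosphate (S1P), had 4, 7 and 1 counts in controls and 3, 2 and 4 after DMHCA. No difference was detectable in these 3 genes at this depth, and no fold change is given for them.

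Apoh (ENSMUSG00000000049, chromosome 11, 108343354 to 108414396, plus strand) encodes beta-2-glycoprotein, which binds charged phospholipids. It had 13, 79 and 14 expected counts in Controls 1, 2 and 3 and 3, 11 and 5 in DMHCA 1, 2 and 3. The highest count was in Control 2, and all DMHCA libraries lay below all controls, with DMHCA 2 close to Controls 1 and 3. Normalized counts had a mean of 34.4 ± 35.5 in controls (SD, n = 3) and 7.61 ± 5.05 after DMHCA (SD, n = 2). The log2 fold change was -2.21 with an SE of 1.07 (adjusted p = 0.644 by edgeR), it was -0.92 without Control 2 and -3.02 without DMHCA 2. Apoh passed the filter on low counts through its control samples, so these values say little. On the TPM scale the controls had 0.55, 1.43 and 0.36 and DMHCA 1, 2 and 3 had 0.07, 0.54 and 0.13, with overlap. The length that enters this scale was 779 bases in Control 1 and 749 in DMHCA 2, against 1190 in the other libraries. An exon of Apoh overlaps one of Prkca on the opposite strand, and the sources used here do not state whether strand was used in counting, so reads of these 2 genes cannot be told apart there.

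Hepatocyte markers were low, apart from Ahsg in DMHCA 2. Of 8 markers, 5 were tested, with 1 higher and 4 lower after DMHCA and a median log2 fold change of -2.01. By edgeR 0 had an adjusted p under 0.05 and 1 an unadjusted one under 0.05, Alb, and DESeq2 on 6 libraries called 0. Alb, which codes for serum albumin, had 14, 7 and 44 counts in controls and 4, 1 and 0 in DMHCA 1, 2 and 3 (log2 fold change -3.73, SE 1.15). It passed the filter through its control samples alone, so this value says little. The summed level was 10.54, 12.4 and 7.67 TPM in controls and 2.55, 88.0 and 1.23 TPM in DMHCA 1, 2 and 3. In Controls 1 and 2 and in DMHCA 2 most of it came from Ahsg, a secreted glycoprotein and the most abundant of the list, with 87.1 TPM in DMHCA 2 and 11.6 TPM or less in the other libraries. Serpina1a, a protease inhibitor, stood at -2.01 on the log2 scale (SE 0.93). Apcs was at 0 in all 6 libraries. The part of such cells in the counts of Apoh, Apoa1 and Apob was not tested.

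Among 21 other genes whose symbols begin with Apo, with Apobr for the apolipoprotein B receptor included, 16 were tested. Of these 6 were higher and 10 lower, with a median log2 fold change of -0.52. By edgeR 0 had an adjusted p under 0.05 and 1 an unadjusted one under 0.05, Apol7c, and DESeq2 on 6 libraries called 0. Apoa2, Apoa4, Apoa5, Apoc3 and Apon did not pass the filter, and Apoa5 was at 0 in all libraries. Apol9a, of a family that acts inside cells and the most abundant of the list, had 73.5, 13.8 and 52.9 TPM in controls and 213, 51.1 and 215 TPM in DMHCA 1, 2 and 3. Apol9a had a log2 fold change of 1.503 (SE 0.76, adjusted p = 0.646 by edgeR), and its reads are split with the closely similar Apol9b, so its counts are uncertain. Like Apoc1, Apol9a was highest in DMHCA 1 and 3, with DMHCA 2 among the controls. Apol7c had 12, 0 and 100 counts in controls and 1, 0 and 0 in DMHCA 1, 2 and 3 (log2 fold change -6.56, SE 2.52), a value that rests on Controls 1 and 3.

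LXR targets outside the family were measured beside these genes, since the treatment is an LXR agonist. Of 16 such genes, 14 were tested, with 10 higher and 4 lower and a median log2 fold change of 0.74. By edgeR the adjusted p was under 0.05 for 0, and the unadjusted p for 5 that were higher and 1 that was lower, while DESeq2 called 3 on the 5 samples and 4 on 6 libraries, all higher. In 8 of the 14 the groups did not overlap and DMHCA was higher, and in 2 it was lower. Abca1, which exports cholesterol to lipid-poor apolipoproteins, had 13.25 TPM in Control 1, 6.48 and 14.9 in Controls 2 and 3, and 37.7, 29.2 and 39.0 in DMHCA 1, 2 and 3. Abca1 stood at 1.36 on the log2 scale (SE 0.35, adjusted p = 0.644 by edgeR). Srebf1, a regulator of fatty acid synthesis, had 234, 95.2 and 193 TPM in controls and 932, 659 and 941 TPM after DMHCA (log2 fold change 2.01, SE 0.39). Scd1, a fatty acid desaturase and the most abundant of the list, had 208, 113 and 389.76 TPM in controls and 1797, 2018 and 1849 TPM after DMHCA (log2 fold change 2.87, SE 0.53). In Abca1, Srebf1 and Scd1 all DMHCA libraries, DMHCA 2 included, lay above all controls. Apoe, Apoc1, Apoc2 and Apoc4 did not have this pattern, and neither did every target of the list. In normalized counts Lpcat3, Arl4c, Pltp and Mlxipl overlapped. Nr1h3 (log2 fold change -1.46, SE 0.59) and Lpl (-1.75, SE 0.90) were lower without overlap. These targets are named after their values were seen. Whether the LXR targets and the apolipoprotein genes differed in their response was not tested.

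Receptors for lipoproteins, with their adaptors and degraders, numbered 18, of which 16 were tested. Of these 9 were higher and 7 lower, with a median log2 fold change of 0.25, 0 with an adjusted p under 0.05 by edgeR, 1 with an unadjusted p under 0.05 and 0 called by DESeq2 on 6 libraries. Mylip, an LXR target that marks the LDL receptor for degradation, had 37.6, 14.7 and 26.2 TPM in controls and 56.6, 47.6 and 57.4 TPM after DMHCA (log2 fold change 0.86, SE 0.33). All its DMHCA libraries were above all controls. Lrp5, better known as a Wnt co-receptor, stood at 0.73 on the log2 scale (SE 0.36). Lsr, a receptor for remnant particles and the most abundant of the list, had 84.8, 42.6 and 53.65 TPM in controls and 98.8, 87.4 and 105 TPM after DMHCA, and in normalized counts its groups overlapped.

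Of 17 genes for assembly, lipolysis and remodelling of lipoproteins, 16 were tested. There were 4 higher and 12 lower, with a median log2 fold change of -0.61 and 0 with an adjusted or an unadjusted p under 0.05 by edgeR, and DESeq2 on 6 libraries called 0. Lpl, the lipase that ApoC2 activates, had 24.5, 15.4 and 132 TPM in controls and 19.9, 18.2 and 19.6 TPM in DMHCA 1, 2 and 3. Control 3 stood far above the other 5 libraries, which lay closer together, and Lpl stood at -1.75 on the log2 scale (SE 0.90). Lipc, the hepatic lipase, had 13, 52 and 39 counts in controls and 18, 5 and 10 after DMHCA. Sar1b, which acts in the export of lipoproteins from the endoplasmic reticulum and was the most abundant of the list, stood at -0.24 on the log2 scale (SE 0.28).

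For S1P, the lipid that ApoM carries, 10 genes for kinases, exporters, receptors and the lyase were all tested, with 7 higher, 3 lower and a median log2 fold change of 0.09. By edgeR 0 had an adjusted p under 0.05 and 1 an unadjusted one under 0.05, Sphk2, and DESeq2 on 6 libraries called 1, S1pr4. Sphk2, a kinase that makes S1P, had 20.5, 7.44 and 14.4 TPM in controls and 32.95, 28.4 and 33.4 TPM after DMHCA (log2 fold change 0.94, SE 0.36). S1pr4, a receptor of lymphocytes, had 0.81, 0.19 and 4.67 TPM in controls and 0.34, 0.25 and 0.32 TPM after DMHCA, with Control 3 the highest. Spns2, an exporter and the most abundant of the list, stood at 0.55 on the log2 scale (SE 0.35). Genes for the lipid's synthesis and export were thus detected in every library in which Apom had 7 counts or fewer.

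Marker levels differed between samples within both groups. Luminal epithelial markers summed to 26533, 20206 and 40257 TPM in Controls 1, 2 and 3 and to 31719, 16454 and 32634 TPM in DMHCA 1, 2 and 3. Most of this was the milk protein gene Csn3, at 12114 to 23866 TPM, a gene of mammary epithelium that was high in all 6 libraries. Of the 10 genes 4 were higher and 6 lower (median log2 fold change -0.10), 1 with an unadjusted p under 0.05 by edgeR, and DESeq2 on 6 libraries called that 1, the casein gene Csn2. Csn2 had 766, 15.2 and 13320.4 TPM in controls and 62.6, 19.5 and 50.3 TPM after DMHCA. The keratin gene Krt19 had 43.85, 4.73 and 435 TPM in controls and 20.06, 1.51 and 19.5 TPM after DMHCA. Lalba, named after its values were seen, had 760, 23.6 and 1424 TPM in controls. In DMHCA 1, 2 and 3 Lalba had 3799, 36.7 and 3962 TPM. Lalba was highest in DMHCA 1 and 3, with DMHCA 2 among the controls. Apoc1 had this order too, but a gene picked after its values were seen says little about such a likeness. Csn2 and Krt19 of the same list were highest in Control 3. The part of luminal cells in Apoc1 was not tested. Basal markers summed to 70.4, 35.9 and 131 TPM in controls and to 66.4, 52.0 and 67.6 TPM after DMHCA, with 0 higher and 7 lower of 7 and a median of -1.52. Acta2 was the most abundant of them, and Trp63 (log2 fold change -2.64) and Krt5 (-2.81) had the smallest p. Trp63 alone had an unadjusted p under 0.05 and was also called by DESeq2 on 6 libraries.

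Fibroblast markers summed to 864, 388 and 1424 TPM in controls and 702, 802 and 713 TPM after DMHCA. Of 10 genes 3 were higher and 7 lower (median log2 fold change -0.34), with Col3a1 the most abundant and 0 with an unadjusted p under 0.05 by edgeR or called by DESeq2 on 6 libraries. Dcn and Lum, which code for matrix proteoglycans, had log2 fold changes of -1.79 and -1.003, and Dcn was highest in Control 3 with 521 TPM. Fibroblast genes were thus present in every library, and the sums of the DMHCA libraries lay within the range of the controls.

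Adipocyte markers summed to 149, 24.6 and 517 TPM in Controls 1, 2 and 3 and to 19.7, 19.4 and 14.8 TPM in DMHCA 1, 2 and 3. All 8 were lower with a median log2 fold change of -4.80, 7 with an unadjusted p under 0.05 and 0 with an adjusted p under 0.05 by edgeR, and DESeq2 called 6 on the 5 samples and 7 on 6 libraries. Cfd, which codes for adipsin and was the most abundant, had 92.9, 10.2 and 304 TPM in controls and 3.29, 9 and 1.67 TPM after DMHCA. Cidec, a lipid droplet protein, had 9.09, 3.69 and 43.5 TPM in controls and 0.62, 0.80 and 0.25 TPM after DMHCA (log2 fold change -5.07, SE 1.19). Lep, which codes for leptin, stood at -4.87 on the log2 scale (SE 1.06). It had 276, 123 and 658 counts in controls and 14, 18 and 0 in DMHCA 1, 2 and 3. Lep passed the filter through its control samples, so the size of its fold change is uncertain. The controls differed from each other in these markers, and in 7 of the 8 the lowest control still lay above both DMHCA samples in normalized counts. The part of fat cells in the levels of Apoe, Apoc1, Apod and Clu was not tested.

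Lymphocyte markers were highest in Control 3, followed by Control 1. B cell markers summed to 31.5, 1.09 and 269 TPM in controls and 2.35, 1.73 and 1.71 TPM after DMHCA, and all 5 were lower (median log2 fold change -6.88) with an unadjusted p under 0.05 by edgeR. Cd79a and Pax5, both B cell genes, had log2 fold changes of -6.88 and -7.25 with overlapping groups, and Cd79a was the most abundant. DESeq2 called 1 on the 5 samples, Pax5, and all 5 on 6 libraries. Pax5 had 280, 6 and 1643 counts in controls and 10, 1 and 4 in DMHCA 1, 2 and 3. It passed the filter through Controls 1 and 3 alone, so its values say little. T cell markers summed to 14.25, 2.74 and 139.84 TPM in controls and 6.83, 4.01 and 5.70 TPM after DMHCA. All 5 were lower (median -3.79), 2 with an unadjusted p under 0.05, Trac (-4.07, the most abundant) and Cd3d (-4.72), and DESeq2 called 1 on the 5 samples and 2 on 6 libraries. By edgeR, 0 genes of either list had an adjusted p under 0.05. The part of lymphocytes in the levels of the apolipoprotein genes was not tested.

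Endothelial, Schwann cell and muscle markers completed the lists. Endothelial markers summed to 59.9, 48.55 and 86.2 TPM in controls and 66.7, 70.1 and 69.6 TPM after DMHCA, with 3 higher and 3 lower of 6 and a median log2 fold change of -0.01. Cdh5, which codes for a junction protein of endothelium, stood at 0.81 on the log2 scale (SE 0.25) and had the only unadjusted p under 0.05, Kdr stood at 0.33, and Pecam1 was the most abundant. Schwann cell markers summed to 389.41, 299 and 209.7 TPM in controls and 416, 451 and 400.24 TPM after DMHCA, most of it Sox10, which is also made in some mammary epithelial cells. Of the 6, 1 was higher and 5 lower (median -0.73), and Mbp, which codes for a myelin protein, had a log2 fold change of -0.58. Muscle markers summed to 562, 1021 and 699 TPM in controls and 844, 247 and 912 TPM in DMHCA 1, 2 and 3, so that DMHCA 2 was lowest. All 5 were lower (median -0.70), with Tnnt3 (-0.74, the most abundant) and Mylpf (-0.70) named by their p. By edgeR 0 genes of these 3 lists had an adjusted p under 0.05, 1 had an unadjusted p under 0.05, and DESeq2 on 6 libraries called 0. In muscle markers DMHCA 2 stood apart from DMHCA 1 and 3, as it did for Apoc1 and Apod, and the part of muscle in those genes was not tested. In all lists other than those of LXR targets, adipocytes, B cells and T cells, DESeq2 on the 5 samples called 0.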

How the data were processed

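Per the labels and the study's methods, the authors trimmed paired-end reads with cutadapt 2.9, checked them with FastQC 0.11.9, and used RSEM 1.3.1 with Bowtie2 2.4.1 on the Ensembl mouse genome, release 99 (mm10). The authors deposited 1 table per library with expected counts, which RSEM estimates per gene without normalization, with TPM scaled by transcript length and library size, and with weighted transcript lengths in bases. The authors also deposited FPKM, which was not used here. Whether strand was used in counting is not given in the sources used here.

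Genes were matched by symbol. Expected counts were rounded, DMHCA 1 and 3 summed, low genes removed with edgeR's filterByExpr (minimum count 10, total 15), and 19427 genes tested with TMM normalization and edgeR 4.0.16's quasi-likelihood test, two-sided, with Benjamini-Hochberg adjustment over all of them, in R 4.3.3. A gene was called at an adjusted p under 0.05. The standard error is the absolute log2 fold change over the square root of F. Alternatives were DESeq2 1.42.0 on 5 samples or 6 libraries, 6 libraries or a replicate block in edgeR, DESeq2 size factors, no filter, a filter of 1 CPM in 2 samples, robust dispersions, limma 3.58.1 on log2 TPM with pseudocounts of 1 and 0.1, and each library left out. Positions are from GENCODE M21 (GRCm38), which holds 55144 (99.6%) of the 55385 gene identifiers, and promoters from RefSeq.

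The 10 genes and all lists were chosen with earlier results of these data known. Named are the 10 genes, and of each list its counts, the 2 genes with the smallest unadjusted p and the most abundant by mean TPM, with Abca1, Srebf1 and Scd1 of the LXR targets. Some genes that this rule would name are not reported here. For Apoe, Apoc1, Apod and Clu, the 3 genes with the smallest RMS difference of centred log2(normalized count + 1) are named. Lists were other apolipoproteins with Apobr, cluster neighbours, lipoprotein receptors, lipoprotein assembly and remodelling, LXR targets and S1P genes. Marker lists were those of macrophages, fibroblasts, adipocytes, luminal and basal epithelium, hepatocytes, endothelium, Schwann cells, muscle, B cells and T cells. The study's text speaks of 3 mice per group and the labels do not say which library came from which mouse, so p-values measure only the spread between these samples.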

Additional observations from a re-analysis of the deposited data

How the results depend on the processing

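Over 10 alternative settings, the log2 fold changes of Apoe (-0.59 to -0.33), Apoc1 (2.38 to 2.91), Apoc2 (-0.60 to -0.25), Apod (0.88 to 1.85) and Clu (-2.29 to -1.79) kept their direction, as did that of Apoh in the 9 settings that tested it (-2.42 to -0.41). Apoc4 was 0.00 (0.001967) and 0.05 (0.04813) by limma on log2 TPM with pseudocounts of 1 and 0.1, against -0.29, and the cause was not tested. That scale moved the median of all genes to 0.11 and 0.16, from -0.03, so values on it stand relative to that shift. On it, 1 gene of the family (Clu) did not overlap with either pseudocount (27.3% of all genes), against 3. Genes called were 244 by DESeq2 on 5 samples, 887 on 6 libraries and 16 without a filter, against 0. Genes of the family called were 2 by DESeq2 on 6 libraries, and adjusted p-values over these 10 settings ranged from 0.0337 to 0.667 for Apoc1 and from 0.00295 to 0.667 for Clu, with up to 0.959 for both when 1 library was left out. Genes of the family with an unadjusted p under 0.05 were 3 in edgeR with 6 libraries (Apoc1, Apoh and Clu; 15.6% of all genes with a p), 4 by DESeq2 on 5 samples (6.7%), 4 by DESeq2 on 6 libraries (10.4%) and 4 without a filter (7.93%), Apoc1, Apod, Apoh and Clu in each, against 1 (7.61%). The libraries share only a replicate number: same-numbered pairs had correlations of -0.0342, 0.311 and 0.320 (0.31996) across genes, and not every library correlated best with its own number. DMHCA 1 and 3 are nearly the same library, and Control 3 had 0.309 with DMHCA 1. These are therefore not separate checks, and they cannot settle whether the libraries were paired. With the number as a replicate block in edgeR on 6 libraries, 0 genes were called, and 3 genes of the family (Apoc1, Apoh and Clu) had an unadjusted p under 0.05, as did 17.2% of all genes. With 1 library left out, genes called and genes of the family called were 0 to 0, those with an unadjusted p under 0.05 were 1 to 3 (4.26% to 9.4% of all genes), and those without overlap were 3 to 5 (25.7% to 49.8% of all genes). Log2 fold changes then ranged from -0.62 to -0.26 for Apoe, 1.93 to 3.54 for Apoc1, -0.78 to -0.24 for Apoc2, -0.56 to -0.09 for Apoc4, 0.07 to 2.31 for Apod, -3.02 to -0.92 for Apoh and -2.77 to -1.67 for Clu. The lowest value for Apod was without DMHCA 2. With 2 DMHCA samples, 1 of them a sum of nearly identical libraries, the mean of Apoc1 and of Apod rests on a single sample each. Counts of Apoh, Apom, Apoa1 and Apob are too few for a fold change to be precise, and those of Apoc2 and Apoc4 depend on how reads shared with Gm44805 were assigned. Totals of 46358654 to 63420620 counts limit detection to about 3 counts per gene and library.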
